A study of Mus musculus with 12 samples.

Results

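Genes for 7 regulators of G-protein signalling (RGS), Rgs1, Rgs2, Rgs3, Rgs10, Rgs14, Rgs16 and Rgs19, were followed in the EL-4 mouse T lymphoma cell line before and after stimulation. Members were the probe sets of the Affymetrix Mouse Gene 1.0ST array whose only gene symbol was one of these 7 names. This rule found 7 probe sets for 6 genes, of 19938 genes with such a probe set. Rgs3 had 2 probe sets and Rgs10 was not analysed here. The 12 arrays formed 4 groups of 3, and all 12 measured RNA of this same line. Unstimulated cells and cells stimulated for 4 h with PMA at 10 ng/ml plus ionomycin at 1 µM (P/I) each carried either the solvent DMSO or cycloheximide (CHX) at 10 µg/ml, added 30 min before stimulation. PMA activates protein kinase C and ionomycin raises calcium, so that together they mimic antigen receptor signalling, while CHX blocks protein synthesis. How long unstimulated cells were kept in CHX was not given in the sources used here. The comparison of P/I with and without CHX was made to separate genes that respond without new protein from those that need it.

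RGS proteins bind activated G-protein alpha subunits and speed up their hydrolysis of GTP, which ends the signal from a receptor. Lymphocytes use them to limit responses to chemokines, prostaglandins and other ligands of G-protein coupled receptors. Rgs2 acts mainly on the Gq class, Rgs1, Rgs3 and Rgs16 act on Gi and Gq subunits, and Rgs19 and Rgs10 act on the Gi class. Rgs14 also binds Ras-family GTPases and holds an inactive Gi subunit through a second motif.

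Values are log2 robust multichip average (RMA) intensities, so a difference of 1 is a doubling. A probe set was called where its limma test, adjusted by the Benjamini-Hochberg method over 23410 probe sets, gave an adjusted p under 0.1. Over all probe sets, r between arrays within a group lay between 0.983 and 0.994, and no pair of arrays was identical. The 10 T cell identity genes measured had group means of log2 7.86 to 12.60 in unstimulated DMSO cells, and the log2 of their summed linear levels stayed between 13.87 and 14.10 over all arrays. Corresponding means were 4.21 to 7.44 for 7 B cell markers, 4.37 to 5.47 for 11 myeloid markers, and 4.96 to 6.75 for 5 erythroid and fibroblast markers. With P/I in DMSO, 2 T cell genes (20%) were called higher and 2 (20%) lower, beside 9.05% and 8.42% of all probe sets. There, 1 B cell marker was higher and 2 lower, 1 myeloid marker lower and 1 fibroblast marker higher. For CHX during P/I, 3 T cell genes (30%) were higher and 3 (30%) lower, beside 13.2% and 12% of all probe sets. In that comparison 1 B cell marker was higher and 1 lower, 2 myeloid markers higher and 1 fibroblast marker lower. The part of these genes in the results was not tested. The table holds no detection calls, so a low value cannot be read as absent RNA. On bulk RNA, fewer expressing cells and less RNA per cell cannot be told apart.

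In DMSO cells Rgs2 was the one measured member called with P/I, where it rose. Rgs2 and Rgs3 were both higher when CHX was present during stimulation. Rgs2 was called in all 3 pairwise comparisons that involve P/I cells. Rgs3 was called in the 2 of them that involve CHX, by only the probe set with the higher mean. Rgs1, Rgs14, Rgs16 and Rgs19 were not called in any of the 5 comparisons. Without stimulation, CHX gave no called member.

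**Figure D1:**
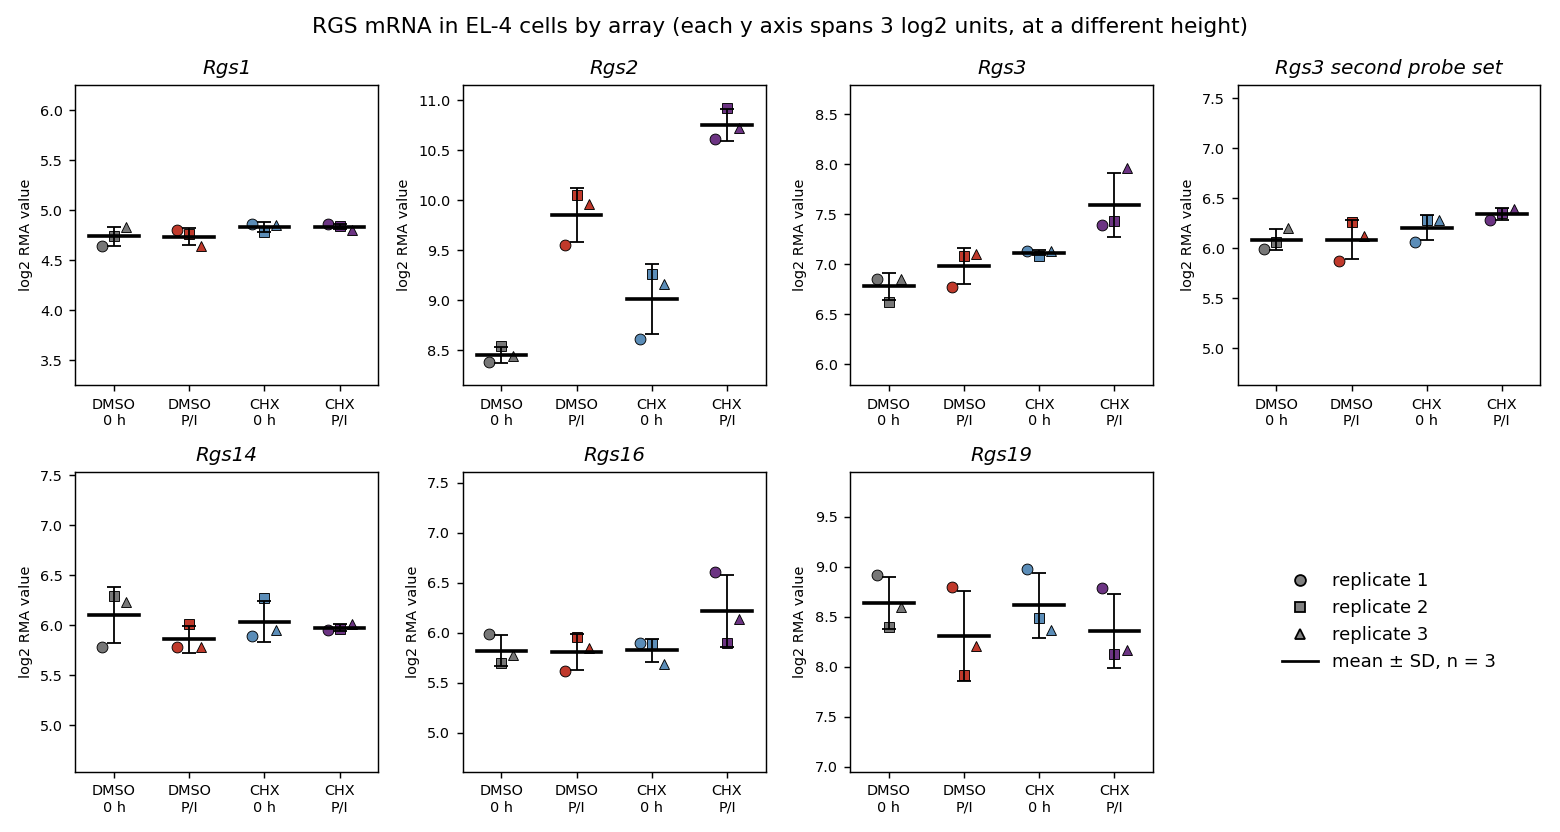
Log2 RMA value (y axis) of each member probe set on each of the 12 arrays, by group (x axis), with a bar at the mean of the 3 arrays and whiskers of 1 SD. Rgs2 climbed from 8.45 in unstimulated DMSO cells to 10.76 in CHX P/I cells, while the Rgs1 arrays all sat between 4.64 and 4.87.

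Rgs2 carried the clearest response, so its upstream sequence and that of Rgs16, which was not called, are shown for comparison. Each is the 250 bases before the annotated start in RefSeq, build GRCm38.p6, read 5′ to 3′ on the gene's own strand. Rgs2 lies at chr1:144004150-144004399 on the minus strand and Rgs16 at chr1:153740103-153740352 on the plus strand. Capitals mark, on either strand, TGACG (the core of the cAMP response element) and GGGCGG (the GC box, bound by Sp1-type factors).
Rgs2: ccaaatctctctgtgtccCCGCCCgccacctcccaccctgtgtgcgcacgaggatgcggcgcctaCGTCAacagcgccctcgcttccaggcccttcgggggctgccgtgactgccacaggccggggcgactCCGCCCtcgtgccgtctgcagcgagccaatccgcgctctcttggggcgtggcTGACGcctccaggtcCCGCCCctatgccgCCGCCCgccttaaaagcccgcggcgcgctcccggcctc
Rgs16: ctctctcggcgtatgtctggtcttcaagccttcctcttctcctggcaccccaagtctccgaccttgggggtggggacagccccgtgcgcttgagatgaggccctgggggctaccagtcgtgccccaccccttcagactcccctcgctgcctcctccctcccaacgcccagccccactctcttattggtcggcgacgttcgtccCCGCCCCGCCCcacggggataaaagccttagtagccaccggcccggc

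The Rgs2 window held 2 matches to TGACG and 4 to GGGCGG, and its GC content was 72.4%. The Rgs16 window held no TGACG and 2 GC boxes that overlap by 1 base, at a GC content of 66.4%. Among all 32851 promoter windows of the same length, 17.8% held TGACG and 32.7% held GGGCGG, and the median GC content was 52.4%. The full element TGACGTCA, the AP-1 motif TGANTCA and the NFAT core GGAAA, found in 1.55%, 6.75% and 55.6% of all windows, had no match in either sequence. Nor had the Egr core GCGGGGGCG or the TATA box TATAAA, found in 2.57% and 12.4% of all windows. Of the 7 members, 5 had an entry in the promoter table, with 8 starts. Rgs1 and Rgs14 had none. A match of letters is a description and was not tested as a binding site.

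Rgs2 (probe set 10358389) was measured at log2 8.38, 8.54 and 8.44 on the unstimulated DMSO arrays. After P/I the DMSO arrays read 9.55, 10.06 and 9.97. Every P/I array lay above every unstimulated one. The difference was 1.40 ± 0.17 (SE, n = 3 arrays in each group) on the log2 scale, a 2.65-fold rise with a 95% interval of 2.04 to 3.44 (limma adjusted p = 0.00018). Rgs2 was thus the 1 member of 6 called higher, beside 9.05% of all probe sets tested, and 0 members were called lower, beside 8.42%. It was also the 1 member whose groups did not overlap in this comparison, a property held in the higher direction by 12.2% of probe sets, and 0 members lay wholly lower, beside 12.7%. The median difference was -0.01 over the members and -0.03 over all probe sets.

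With CHX, Rgs2 reached 10.62, 10.93 and 10.72 after P/I, above all 3 arrays of P/I alone. The excess over P/I in DMSO was 0.90 ± 0.17 (SE) on the log2 scale, or 1.86-fold (limma adjusted p = 0.00256). The unstimulated CHX arrays read 8.61, 9.26 and 9.16, again above every unstimulated DMSO array. That difference of 0.56, with a 95% interval of 0.18 to 0.93, was not called (limma adjusted p = 0.548; unadjusted p = 0.0073). P/I within CHX cells raised Rgs2 by 1.74 on the log2 scale, a 3.35-fold rise with an interval of 2.58 to 4.35 (limma adjusted p = 3.58e-05). The P/I effect in CHX cells exceeded that in DMSO cells by 0.34, with an interval of -0.19 to 0.87, and this interaction was not called (limma adjusted p = 0.479). The 3 calls of Rgs2 held under each of the 24 alternative settings tried.

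Rgs2 lies in a stretch of mouse chromosome 1 where, in the RefSeq annotation of GRCm38.p6, 5 protein-coding genes follow one another and all are RGS genes. Their order is Rgs2, Rgs13, Rgs1, Rgs21 and Rgs18, an arrangement examined after the values were known. Of these neighbours only Rgs2 was called for P/I in DMSO. In unstimulated DMSO cells Rgs13 had a mean of 8.66, Rgs1 4.74, Rgs21 3.97 and Rgs18 9.09. The lowest value of any probe set on any array was 3.47. The other log2 differences were -0.08 for Rgs13 (limma adjusted p = 0.937), -0.00 for Rgs1 (0.985), 0.06 for Rgs21 (0.808) and -0.33 for Rgs18 (0.287). None of these 4 was called for CHX during P/I either, where Rgs13 differed by -0.68 (limma adjusted p = 0.255). Rgs8 and Rgs16 are likewise adjacent on this chromosome, and neither was called for P/I in DMSO, at -0.11 (limma adjusted p = 0.561) and -0.01 (0.975).

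Rgs3, a longer member with several isoforms, was called through its representative probe set only, in comparisons that involve CHX P/I cells. This probe set (10607113, the one with the higher mean) read 6.86, 6.62 and 6.86 in unstimulated DMSO cells and 6.78, 7.08 and 7.10 after P/I. These groups overlapped, and the difference of 0.21 was not called (interval -0.11 to 0.53; limma adjusted p = 0.466). In CHX cells it read 7.13, 7.09 and 7.13 before P/I and 7.39, 7.43 and 7.96 after. Every CHX P/I array was above every array of the other 3 groups, and the third CHX P/I array was the highest of all.

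During P/I, CHX raised Rgs3 by 0.61 ± 0.15 (SE, n = 3 arrays in each group) on the log2 scale, or 1.53-fold (limma adjusted p = 0.0102). Rgs2 and Rgs3 were the 2 members of 6 called higher by CHX during P/I, beside 13.2% of all probe sets, with 0 called lower beside 12%. Rgs1, Rgs2 and Rgs3 had non-overlapping groups in this comparison, as did 15.3% of probe sets in the higher direction, and 0 lay wholly lower, beside 14.8%. The median difference was 0.26 over the members and 0.01 over all probe sets. The representative probe set kept this call under all 24 alternative settings, with values from 0.43 to 0.71. The other Rgs3 probe set was not among them, and at 0.26 it was not called (limma adjusted p = 0.126).

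Within CHX cells, P/I raised Rgs3 by 0.48 ± 0.15 (SE) on the log2 scale, or 1.39-fold (limma adjusted p = 0.0427). Rgs2 and Rgs3 were again the 2 members of 6 called higher, beside 10.2% of all probe sets, with 0 called lower beside 11.6%. Rgs2, Rgs3 and, by a margin lost in rounding, Rgs16 did not overlap between these groups, beside 18.3% of probe sets in the higher direction and 17.4% in the lower, where no member stood. This Rgs3 call rested on single arrays. Without CHX unstimulated replicate 2 the difference was 0.46 (limma adjusted p = 0.114), and without CHX P/I replicate 3 it was 0.29 (limma adjusted p = 0.150). CHX alone gave Rgs3 a difference of 0.34 with an interval of 0.02 to 0.66, which was not called (limma adjusted p = 0.722). The interaction was 0.27, with an interval of -0.18 to 0.72 (limma adjusted p = 0.510).

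The second Rgs3 probe set (10505326) gave no call in the fit of the 4 group means. Its group means were 6.09, 6.08, 6.21 and 6.34 in unstimulated DMSO, DMSO P/I, unstimulated CHX and CHX P/I cells. The difference for CHX during P/I had an interval of 0.02 to 0.49, in the same direction as that of the representative probe set. For P/I in DMSO it was -0.00 (interval -0.24 to 0.23; limma adjusted p = 0.995). For P/I in CHX the difference was 0.14 (interval -0.10 to 0.37, limma adjusted p = 0.487). The 2 probe sets correlated at r = 0.75 over the 12 arrays, which share the 4 group means.

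**Figure D2:**
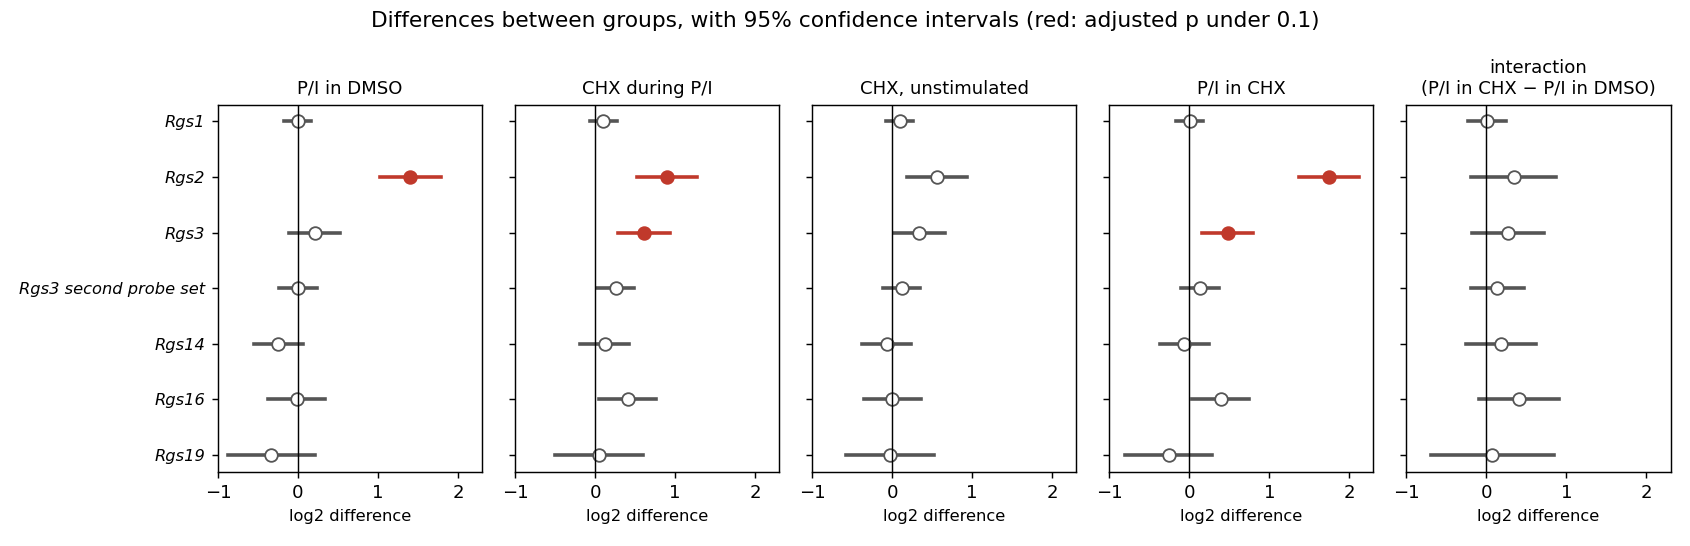
Log2 difference of each member probe set (rows) in each comparison (panels), with its 95% interval from the limma fit; filled points were called at an adjusted p under 0.1. Rgs2 stands at 1.40 for P/I in DMSO and 1.74 for P/I in CHX, and the other members' points for P/I in DMSO lie between -0.33 and 0.21.

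Rgs16, known as a gene induced in activated lymphocytes, was not called with P/I in DMSO cells. Its unstimulated DMSO arrays read 5.99, 5.69 and 5.78 and its DMSO P/I arrays 5.61, 5.96 and 5.85, a difference of -0.01 with an interval of -0.37 to 0.34. Unstimulated CHX arrays read 5.90, 5.89 and 5.69, in the same range. The CHX P/I arrays read 6.61, 5.90 and 6.14, so the first was the highest of the 12 and the second lay within the range of the DMSO arrays.

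For CHX during P/I, Rgs16 differed by 0.41 with an interval of 0.05 to 0.76, just short of a call (limma adjusted p = 0.108). It was called under 7 of 24 alternative settings. Median centring of the arrays gave 0.46 (limma adjusted p = 0.0809) and leaving out CHX P/I replicate 2 gave 0.57 (limma adjusted p = 0.0292). Leaving out DMSO P/I replicate 2 gave 0.48 (limma adjusted p = 0.0983). Over all 24 settings the difference ran from 0.12 to 0.57, and the limma adjusted p from 0.0292 to 0.553. For P/I in CHX cells the difference was 0.39 with an interval of 0.04 to 0.75 (limma adjusted p = 0.136), and without CHX P/I replicate 2 it was 0.55 (limma adjusted p = 0.0392). Over the alternatives this difference ran from 0.20 to 0.55, and the limma adjusted p from 0.0392 to 0.423.

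Rgs1, a regulator of chemokine responses that is abundant in germinal-centre B cells, had the narrowest range of the members. Its 12 arrays ran from 4.64 to 4.87. P/I in DMSO gave -0.00 with an interval of -0.17 to 0.16. Without detection calls, this interval describes the signal of the probe set and sets no bound on the mRNA. CHX during P/I gave 0.10 with an interval of -0.07 to 0.27 (limma adjusted p = 0.473), although its 3 CHX P/I arrays at 4.86, 4.84 and 4.81 were each above the DMSO P/I arrays at 4.80, 4.77 and 4.64.

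Rgs14 read 5.78, 6.29 and 6.24 in unstimulated DMSO cells and 5.79, 6.01 and 5.78 after P/I. The groups overlapped through the first unstimulated array. The difference of -0.24 was not called (interval -0.55 to 0.06; limma adjusted p = 0.346), and without DMSO unstimulated replicate 1 it was -0.41 and called lower (limma adjusted p = 0.0504). The DMSO difference was called lower under 3 of 24 alternative settings. It ran from -0.41 to -0.15 over them, with limma adjusted p from 0.0315 to 0.726. In CHX cells Rgs14 read 5.89, 6.27 and 5.95 before P/I and 5.95, 5.97 and 6.02 after, a difference of -0.06 with an interval of -0.37 to 0.25.

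Rgs19, also known as GAIP, read 8.92, 8.40 and 8.59 in unstimulated DMSO cells and 8.79, 7.92 and 8.21 after P/I. In CHX cells it read 8.98, 8.48 and 8.37 before P/I and 8.78, 8.12 and 8.16 after. Replicate 1 was the highest array in each of the 4 groups. P/I gave -0.33 in DMSO cells (interval -0.88 to 0.21; limma adjusted p = 0.499) and -0.25 in CHX cells (interval -0.80 to 0.29; limma adjusted p = 0.596), neither of them called. With the replicate number added to the fit as a block, both were called lower, at the values given in the closing section. That pairing is a hint from the data and not given by the design. Without the 4 replicate 1 arrays the DMSO value was -0.43 and called lower (limma adjusted p = 0.0233). Over 24 alternative settings the DMSO value ran from -0.58 to -0.14 and was called under 2 of them, with limma adjusted p from 0.0233 to 0.799.

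CHX without stimulation gave no called member of 6 by limma, beside 0.0299% of all probe sets called higher and 0% called lower. At an unadjusted p under 0.05 there were 2, Rgs2 and Rgs3, both higher, beside 4.13% of all probe sets. Both had non-overlapping groups, beside 7.06% of probe sets in the higher direction and 9.15% in the lower, where no member stood. None of the 6 members was called for the interaction by limma, where 6.04% of probe sets were called higher and 7.62% lower, and none had an unadjusted p under 0.05, beside 21.6% of probe sets in either direction. The median interaction value was 0.23 over the members and 0.05 over all probe sets.

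The genes whose values over the 12 arrays most resembled those of Rgs2, among 18258 genes, were Csrnp1 (Pearson r = 0.989), Phf19 (r = 0.982) and Adamts6 (r = 0.981). Csrnp1 encodes a nuclear protein known as an immediate early gene product, Phf19 a Polycomb-associated protein and Adamts6 a secreted metalloprotease. Their log2 differences for P/I in DMSO were 2.17, 0.77 and 2.09, beside 1.40 for Rgs2. For Rgs3 they were Il17ra (r = 0.931), Gcc1 (r = 0.929) and Ube2z (r = 0.926). Rgs2 and Rgs3 correlated with one another at r = 0.76. All these coefficients describe arrays that share 4 group means.

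Of the other 15 RGS family genes, 0 were called higher and 2 (13.3%) lower for P/I in DMSO, beside 8.42% of all probe sets called lower. For CHX during P/I 2 (13.3%) were higher and 0 lower, beside 13.2% higher. For P/I in CHX cells 2 (13.3%) were higher and 0 lower, beside 10.2% higher. Rgs11, a partner of the G beta 5 subunit, had the largest called difference of this list. It fell from 7.14 ± 0.36 (SD, n = 3) in unstimulated DMSO cells to 5.54 ± 0.24 after P/I, a difference of -1.61 (limma adjusted p = 0.0019). With CHX it was at 7.09 ± 0.49 (SD, n = 3) after P/I, 1.56 above P/I alone (limma adjusted p = 0.00158) and -0.37 from unstimulated CHX cells (limma adjusted p = 0.465). Rgs12 was called lower with P/I, at -0.46 (limma adjusted p = 0.0104). Rgs9 rose in CHX cells from 5.27 to 6.06 with P/I, a difference of 0.79 (limma adjusted p = 0.000307), and was 0.38 higher with CHX during P/I (limma adjusted p = 0.0215). Rgs6 was called higher with P/I in CHX cells by 0.26, from 4.76 to 5.02 (limma adjusted p = 0.0978). Its mean in unstimulated DMSO cells was 4.97.

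Proteins outside the family that carry an RGS domain gave more calls lower than higher with P/I. Of 14 measured, 2 (14.3%) were called higher and 6 (42.9%) lower for P/I in DMSO, beside 9.05% and 8.42% of all probe sets. The median difference was -0.12 against -0.03 over all probe sets. Axin2, a scaffold and target of Wnt signalling, fell by 1.28 on the log2 scale (limma adjusted p = 0.000103). The sorting nexin Snx14 fell by 1.25 and the receptor kinase gene Grk6 by 0.97, while the kinase anchor gene Akap10 rose by 0.65. For CHX during P/I, 1 (7.14%) was higher and 1 (7.14%) lower, beside 13.2% and 12% of all probe sets. These were Snx14, at 1.26, and Snx25, at -0.60. For P/I in CHX, 0 were higher and 3 (21.4%) lower, beside 10.2% and 11.6% of all probe sets. The 3 were Axin2 at -1.68, Snx25 at -1.09 and Grk6 at -0.62.

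The G alpha subunits on which RGS proteins act moved in both directions. Of 14 measured, 3 (21.4%) were called higher and 2 (14.3%) lower for P/I in DMSO, beside 9.05% and 8.42% of all probe sets. Gnaq, the Gq subunit, rose from 7.54 ± 0.77 (SD, n = 3) to 9.33 ± 0.16, a difference of 1.79 (limma adjusted p = 0.0087), and rose by 2.06 in CHX cells (limma adjusted p = 0.00316). Gnai2, the main lymphocyte Gi subunit, fell by 0.50 (limma adjusted p = 0.00344) and by 0.44 in CHX cells. Gna13 rose by 0.63 (limma adjusted p = 0.00479). For CHX during P/I, 1 subunit (7.14%) was higher and 3 (21.4%) were lower, beside 13.2% and 12% of all probe sets. These were Gna15 at 0.55, Gna12 at -1.26, Gna13 at -0.84 and Gna11 at -1.001. For P/I in CHX cells 1 (7.14%) was higher and 4 (28.6%) were lower, beside 10.2% and 11.6%. Of 17 beta and gamma subunits, 0 were higher and 3 (17.6%) lower for P/I in DMSO. For CHX during P/I 1 (5.88%) was higher and 2 (11.8%) lower. For P/I in CHX 1 (5.88%) was higher and 3 (17.6%) lower. The shares of all probe sets are those given for the G alpha subunits. Gng2, at -0.48, Gngt2, at -0.41, and Gnb2, at -0.30, made up the 3 lower with P/I in DMSO.

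Among 44 G-protein coupled receptors of lymphocytes, 8 (18.2%) were called higher and 5 (11.4%) lower for P/I in DMSO. Over all probe sets 9.05% were higher and 8.42% lower. The prostaglandin E2 receptors Ptger4 and Ptger2 rose 5.49-fold and 4.82-fold, the thrombin receptor F2r rose 4.77-fold and the chemokine receptor Cxcr3 rose 2.34-fold. With CHX during P/I there were again 8 higher and 5 lower, beside 13.2% and 12% of all probe sets. In that comparison Ptger2 was lower by 1.50 on the log2 scale, at 6.52 against 8.02, and Cxcr3 differed by -1.02, while Ptger4 (-0.48; limma adjusted p = 0.251) and F2r (-0.14; limma adjusted p = 0.769) were not called. P/I in CHX cells also gave 8 higher and 5 lower, beside 10.2% and 11.6% of all probe sets.

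Effectors of G proteins also gave more calls lower than higher with P/I. Of 24 measured, 2 (8.33%) were called higher and 8 (33.3%) lower in DMSO cells, beside 9.05% and 8.42% of all probe sets. In CHX cells 3 (12.5%) were higher and 9 (37.5%) lower, beside 10.2% and 11.6%. The medians of -0.05 and 0.02 stood beside -0.03 and 0.02 over all probe sets. Pik3cg, the catalytic subunit of the PI3-kinase driven by beta-gamma subunits, fell by 1.54 on the log2 scale in DMSO cells and by 1.32 in CHX cells. Pde4d, a cAMP phosphodiesterase, fell by 0.95, and the adenylyl cyclase genes Adcy9 and Adcy6 fell by 0.95 and 0.83. For CHX during P/I, 4 (16.7%) were higher and 1 (4.17%) lower, beside 13.2% and 12% of all probe sets. Among them were Adcy1 at 1.16 and Prex1 at -0.70. Of 16 genes for receptor desensitization and G-protein chaperones, 1 (6.25%) was higher and 3 (18.75%) lower for P/I in DMSO. For CHX during P/I 4 (25%) were higher and 3 (18.75%) lower. For P/I in CHX 3 (18.75%) were higher and 6 (37.5%) lower. The shares of all probe sets are those given for the effectors. Arrb1, the gene for beta-arrestin 1, fell by 0.97 and Gpsm2, which binds Gi subunits, fell by 0.83 with P/I in DMSO. None of the genes on these lists was called for CHX without stimulation, beside 0.0299% of all probe sets called higher and 0% lower.

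**Figure D3:**
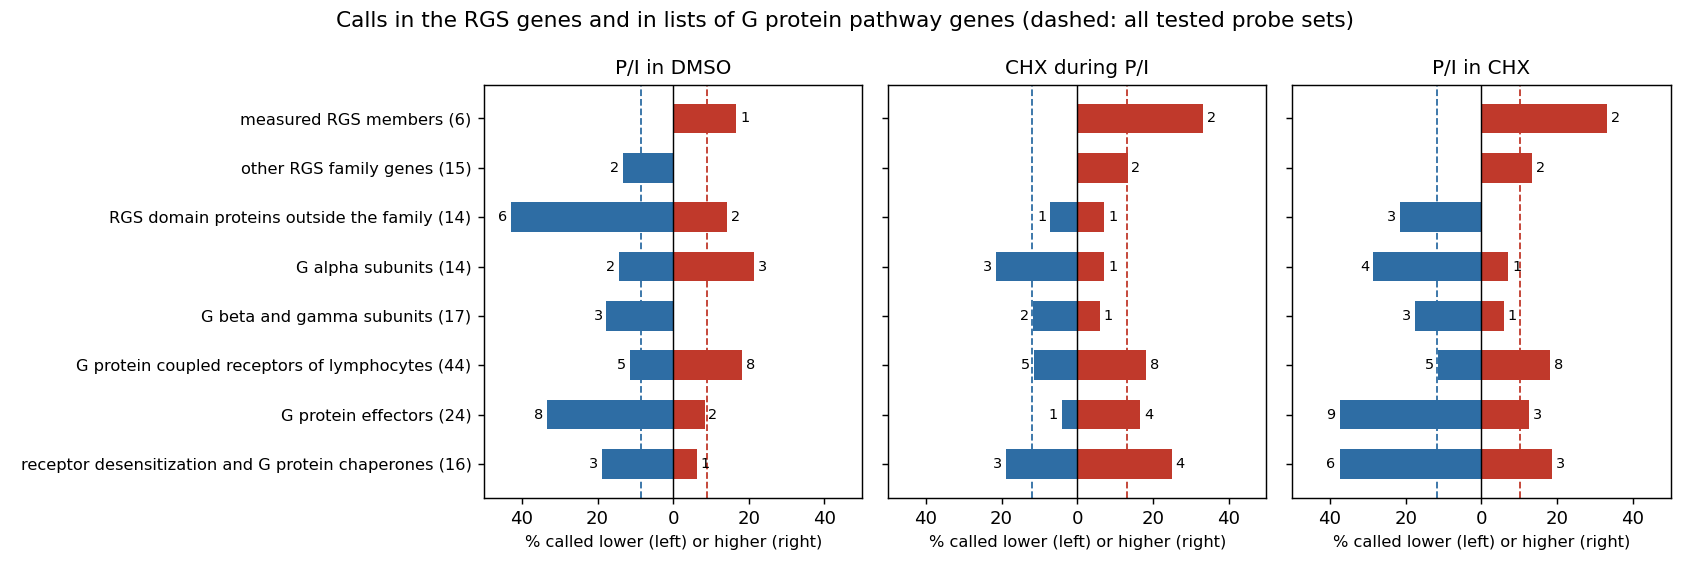
Share of the measured genes of each list (rows, number measured in brackets) called higher (to the right) or lower (to the left) in 3 comparisons (panels), with the number called at the end of each bar. Dashed lines give the share of all probe sets, 9.05% higher and 8.42% lower for P/I in DMSO; the bar for RGS domain proteins outside the family reaches 6 of 14 lower there.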

How the data were processed

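RNA of 12 EL-4 cultures was hybridized to Affymetrix Mouse Gene 1.0ST arrays. The deposited log2 values were made by the authors with the RMA method in Partek, which corrected the background with an adjustment for probe sequence, quantile normalized the arrays and summarized probes into 35399 probe sets. Deposited values were used as they stand. Of these, 21789 probe sets had 1 gene symbol, 1621 several and 11989 none in the platform annotation. The 23410 with a symbol were fitted in limma 3.58.1 (R 4.3.3) as 4 group means (residual degrees of freedom 8, prior 3.63). Each of 5 two-sided contrasts was adjusted by Benjamini-Hochberg at 0.1. The methods name an ANOVA, for which these moderated contrasts of group means were used instead. Intervals are at the 95% level. Where several probe sets named a gene, that with the highest mean over 12 arrays stood for it.

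Every member is named. The called genes named from a list are among the 4 called genes with the smallest p in that comparison, and not all such genes are named. A gene named in one comparison may also be given where it was not called. For each called member the 3 most alike genes are named. The members and lists were chosen with earlier results of these data known. The methods describe the replicates as biological. The number of arrays limits the precision. Alternatives were the replicate block, median centring, quantile normalization, variance models, the 0.05 threshold, probe set filters, the arrays in the fit and leaving out arrays. Array intensities carry no read depth.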

Additional observations from a re-analysis of the deposited data

Results flagged for a closer look

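The effect of P/I differed between CHX and DMSO cells, by the interaction term of the limma fit, for 6 genes of the RGS family and G alpha lists. Of 15 other RGS family genes 2 (13.3%) were called higher, and of 14 G alpha subunits 1 (7.14%) higher and 3 (21.4%) lower. Over all probe sets 6.04% were higher and 7.62% lower. The other pathway lists also held such calls, among them 3 higher and 4 lower of 44 receptors. Of 16 desensitization and chaperone genes 3 were higher and 2 lower. For Rgs11 the P/I effect was 1.24 higher on the log2 scale in CHX cells (adjusted p = 0.0713). This call was lost without moderation (adjusted p = 0.173) and without any of 7 single arrays, among them CHX unstimulated replicate 1 (0.98; adjusted p = 0.146). For Rgs9 the effect was 0.52 higher (adjusted p = 0.0469), and it was 0.44 and not called without the replicate 1 arrays (adjusted p = 0.151). Among G alpha subunits, the interaction was -1.16 for Gna12 (adjusted p = 0.000712), -0.96 for Gna13 (adjusted p = 0.0052) and -1.06 for Gna11 (adjusted p = 0.0263). These negative values stand for a lower P/I effect in CHX cells. For Gna15 the interaction was 0.51 (adjusted p = 0.0202), a higher effect in CHX cells. The causes were not tested.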

How the results depend on the processing

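Across 24 alternatives, the P/I calls of Rgs2 in DMSO and CHX cells and the calls of Rgs2 and of the representative Rgs3 probe set for CHX during P/I held, with Rgs2 at 1.30 to 1.56, 1.54 to 1.87 and 0.744 to 0.998 on the log2 scale. The 2 members called for CHX during P/I became at most 3, and the count of 0 for the interaction stayed at 0. With the replicate block, 2 members were called for P/I in DMSO, 4 for P/I in CHX and 1 for CHX without stimulation. The added calls under the replicate block were Rgs19 for P/I in DMSO (-0.33; adjusted p = 0.0272) and in CHX (-0.25; adjusted p = 0.0743), Rgs16 for P/I in CHX (0.39; adjusted p = 0.0913) and Rgs2 for CHX without stimulation (0.56; adjusted p = 0.0750). For CHX during P/I the replicate block also called Rgs16 (0.41; adjusted p = 0.0734) and the second Rgs3 probe set (0.26; adjusted p = 0.0317). Over all probe sets the replicate block called 3034 higher and 3026 lower for P/I in DMSO, and 115 higher and 4 lower for CHX without stimulation. For P/I in CHX it called 3155 (13.5%) higher and 3958 (16.9%) lower. For CHX during P/I it called 3863 (16.5%) higher and 3744 (16%) lower. Deviations from the group means correlated at 0.0644 to 0.750 over 18 same-number pairs, 17 of them over 0.1, and 11 of 12 arrays correlated best with their own number, so the pairing is a hint from the data and not given by the design.

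Array weights gave 2 members for P/I in DMSO and 1 for CHX without stimulation, and over all probe sets 3410 higher and 3627 lower, and 507 and 125, against 2118 and 1970, and 7 and 0. Without the replicate 1 arrays these counts were 3 and 1, with Rgs14 at -0.37, Rgs19 at -0.43 and Rgs2 at 0.72, and over all probe sets 2804 higher and 2959 lower, and 662 and 89. Leaving out 1 array at a time gave 1 to 2 members for P/I in DMSO and 1 to 3 for P/I in CHX. Median centring moved the split of all probe sets for CHX during P/I from 3096 higher and 2818 lower to 3751 and 2194. Uncalled values close to 0 changed sign. Under median centring, Rgs1 was 0.021 for P/I in DMSO and -0.0018 for the interaction, Rgs16 0.011 for P/I in DMSO, and for CHX without stimulation Rgs14 was 0.0019 and Rgs19 0.041. Quantile normalization gave 0.025 for Rgs1 and 0.017 for Rgs16 for P/I in DMSO. For Rgs16 in that comparison array weights gave 0.070 and fits without the replicate 1 arrays 0.17. The second Rgs3 probe set gave -0.0016 for P/I in DMSO. Leaving out 1 array at a time, the values ranged from -0.053 to 0.044 for Rgs1 (P/I in DMSO), from -0.022 to 0.021 for Rgs1 (P/I in CHX), from -0.040 to 0.057 for Rgs1 (interaction of P/I and CHX), from -0.23 to 0.030 for Rgs14 (CHX without stimulation), from -0.13 to 0.057 for Rgs14 (P/I in CHX), from -0.091 to 0.082 for Rgs16 (P/I in DMSO), from -0.062 to 0.086 for Rgs16 (CHX without stimulation), from -0.16 to 0.29 for Rgs19 (CHX during P/I), from -0.21 to 0.12 for Rgs19 (CHX without stimulation), from -0.14 to 0.32 for Rgs19 (interaction of P/I and CHX). The causes of these shifts were not tested. The 3 arrays in each group limit what the intervals can show, and Rgs1 was not tested under the filter of a mean of at least log2 5.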
